A study of Rattus norvegicus with 57 samples.

Results

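Oxidative phosphorylation genes were followed in rat kidney after 1 injection of cisplatin, an anticancer platinum drug whose use is limited by injury to the kidney tubules. The genes were chosen by symbol: those starting Ndufa, Ndufb, Ndufc, Ndufs, Ndufv, Uqcr, Cox4, Cox5, Cox6, Cox7, Cox8 or Atp5, and Sdha, Sdhb, Sdhc and Sdhd. This gave 86 of the 14217 genes on the array that had a probe set with a single symbol. Of these, 76 encode subunits: 34 of complex I, 4 of complex II, 7 of complex III, 16 of complex IV and 15 of complex V. The other 10 meet the rule by symbol but are no subunits: the complex I assembly factors Ndufaf1, Ndufaf3, Ndufaf4, Ndufaf5, Ndufaf7 and Ndufaf8, the ATP synthase inhibitor Atp5if1, the supercomplex factor Cox7a2l, the Ndufa4 paralog Ndufa4l2 and the pseudogene Cox6c-ps1. Ndufa4, named for complex I, was counted with complex IV, to which its protein is now assigned. A filter on dim probe sets passed 84 of the 86, all but the complex IV isoforms Cox6a2 and Cox7b2.

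Complexes I to IV pass electrons along the inner mitochondrial membrane, from NADH (complex I) or succinate (complex II) through coenzyme Q, complex III and cytochrome c to oxygen at complex IV. Complexes I, III and IV pump protons as they do so, and complex V, the ATP synthase, uses the proton gradient to make ATP. Subunits of all complexes but II come from both the nuclear and the mitochondrial genome, and the genes described here are the nuclear ones. The proximal tubule and the thick ascending limb of the kidney are rich in mitochondria, since solute transport there consumes much ATP.

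Male Han Wistar rats, 8 weeks old, received 3 mg/kg or 1 mg/kg cisplatin or saline once into the abdomen and were killed 3, 5, 8 or 26 days later. RNA came from a kidney homogenate enriched in cortex and was measured on 57 Affymetrix arrays, each from a separate animal. Each group held 5 arrays, except 3 for 1 mg/kg on day 5 and 4 for controls on day 26, while the submitters' design states 6 animals a group. Values are linear signals scaled so that each array has about the same trimmed mean. Changes are differences of log2(signal + 16) between group means, given with their standard errors (SE) and tested with limma in 1 fit over all arrays. Adjusted p-values (Benjamini-Hochberg) cover all 11683 genes tested, and a gene was called at an adjusted p under 0.05.

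The tissue label was met by proximal tubule markers, all 13 of which passed the filter, with a summed signal of 28233 to 33559 in day 8 controls. Havcr1 (KIM-1), a marker of tubule injury, was 680 to 2177 in the 3 mg/kg group on day 8, against 1.73 to 10.2 in controls. The 1 mg/kg group on day 8 was not uniform: Havcr1 was 912 and 1085 in animals 1 and 3, against 17.6 to 32.9 in the other 3. Animal 1 of that group also had the highest ratio of 3′ to 5′ actin signal of all arrays (8.58), and a high ratio is a sign of less intact RNA. Results that rest on both animals are therefore given with and without them. Arrays of the same group correlated at 0.961 to 0.993 (Pearson r of log2 values across genes).

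After 3 mg/kg cisplatin, called genes of oxidative phosphorylation were higher on day 3, by small amounts, and mostly lower on day 8, chiefly in complex I, although the split on day 3 and the place of complex I depended on the scaling, as given below with each result. On day 3, 17 of 84 members were higher (20.2%) and 0 lower, against 5.57% of all genes higher and 4.28% lower. On day 5, 3 members were higher (3.57%) and 0 lower, against 5.31% and 3.49% of all genes. On day 8, 26 members were lower (31%) and 4 higher (4.76%), against 15.9% and 21.4% of all genes. In homogenised tissue, fewer cells of a type and less RNA per cell cannot be told apart.

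By day 26 after 3 mg/kg, limma called 0 members, against 0.753% of all genes, and 2 members had an unadjusted p under 0.05, against 15.9% of all genes. At 1 mg/kg limma called 0 members at any time. The matching shares of all genes were 0.0942%, 0.0171%, 0.522% and 0.00856% at days 3, 5, 8 and 26. The members with an unadjusted p under 0.05 numbered 1, 0, 7 and 0 of 84 at this dose, in order of time, against 6.03%, 3.22%, 12.9% and 6.64% of all genes.

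**Figure D1:**
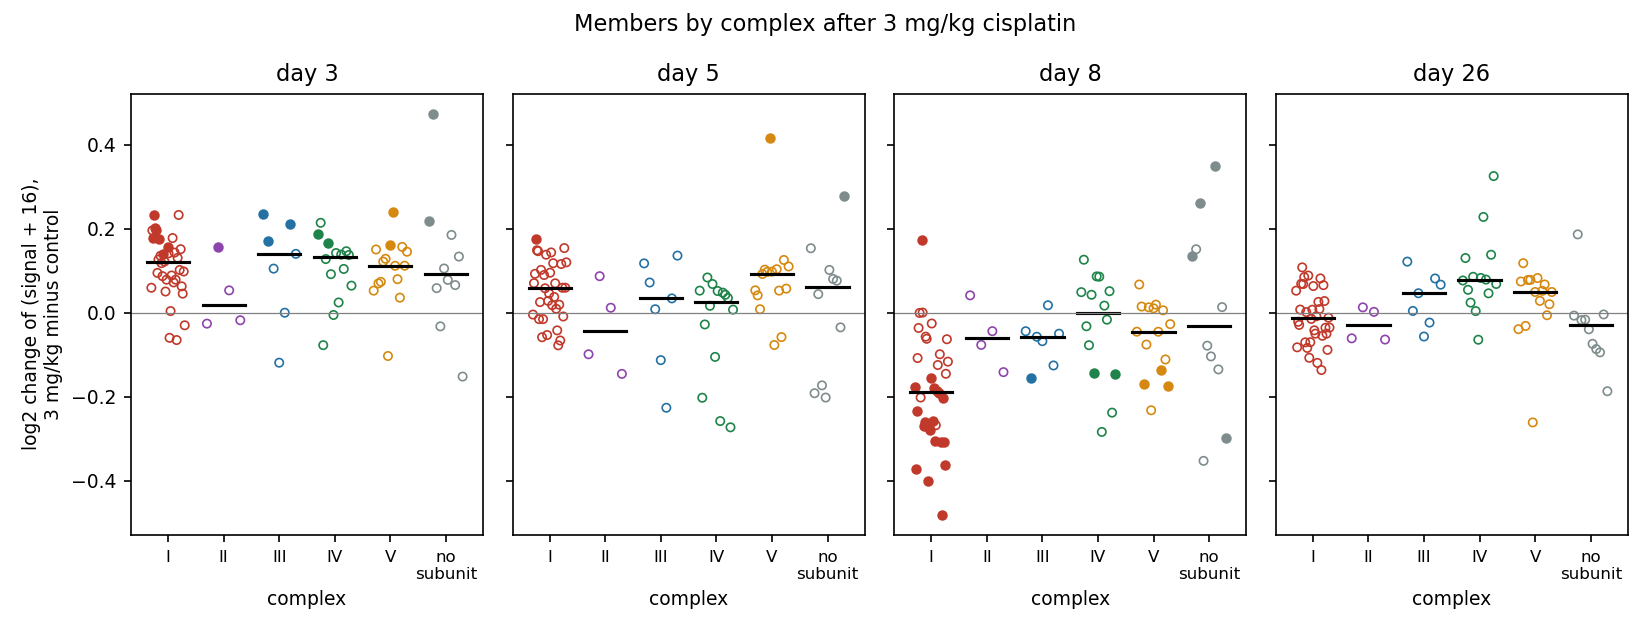
Log2 change of (signal + 16), 3 mg/kg minus control, for the 84 members (points) by complex and day; filled points were called at an adjusted p under 0.05 and bars are medians. On day 8 complex I lies below 0 for 32 of 34 members with a median of -0.19, while the medians of complexes II to V lie between -0.060 and 0.00.

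On day 8, 3 mg/kg cisplatin was accompanied by lower signals of complex I, the NADH dehydrogenase that feeds electrons into the chain. Of 34 complex I genes, 19 were lower (55.9%) and 1, Ndufa6, was higher, with a median change of -0.19, or -11.9% of the signal. Across all genes tested the median change was 0.043. The 26 called falls of all members were modest, from -8.93% to -31.9% of the mean signal with a median of -15.7%. The counts depend on scaling and on the fit: 61 members were called after quantile normalization (58 lower and 3 higher), and 12, all lower, when the groups of this comparison were fitted alone.

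Among the catalytic core of complex I, which carries the flavin and iron-sulfur clusters, 3 of 6 measured genes were lower. Ndufs3, a core subunit of the arm that reaches into the matrix, was 953, 1097, 1033.5, 883 and 929.5 in the 5 animals given 3 mg/kg, against 1158, 1185, 1298.5, 1243 and 1181 in controls. All treated animals lay below all controls, and the change was -0.31 ± 0.05 (SE; limma adjusted p = 9.25e-06). Ndufs7, an iron-sulfur subunit next to the quinone site, was 1082, 1222, 1096, 907.5 and 948 in treated animals, against 1260.5, 1321, 1314, 1305 and 1294 in controls. Its groups did not overlap either, and its change was -0.31 ± 0.06 (adjusted p = 1.77e-05). Ndufs8, another iron-sulfur subunit, was 738, 838, 937, 785.5 and 749.7 in treated animals, against 1073, 1050.1, 1025.5, 1027 and 1035.5 in controls. Again no treated animal reached the lowest control, with a change of -0.36 ± 0.07 (adjusted p = 8.39e-05). The remaining core genes did not pass the test: Ndufs1 had a change of -0.10 ± 0.05 (adjusted p = 0.147), Ndufv1, which binds the flavin, -0.15 ± 0.07 (adjusted p = 0.0887) and Ndufv2 -0.06 ± 0.07 (adjusted p = 0.508).

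The accessory subunits, which surround and stabilise the core, held the other 16 called falls and the 1 rise among 28 genes. In the B group, whose proteins lie in the membrane arm, 8 of 11 were lower, with a median change of -0.26. Ndufb10 was 914, 886, 873, 855.5 and 667 in the animals given 3 mg/kg, against 1100.3, 1108, 1111, 1122 and 1091.5 in controls. The controls lay within a narrow band (SD 11.6) and all treated animals below it (SD 98.6), with a change of -0.40 ± 0.07 (adjusted p = 1.36e-05). Ndufb2 was 1428, 1580.1, 1588, 1444 and 1405 in treated animals, against 1693, 1807, 1909, 1837 and 1807.5 in controls, a change of -0.28 ± 0.05 (adjusted p = 3.69e-06). Ndufb7 was 842, 1018, 874, 831 and 839 in treated animals, against 1063, 1128, 1118, 1032 and 1108 in controls, a change of -0.31 ± 0.05 (adjusted p = 1.33e-05). In both genes the treated animals lay wholly below the controls. Ndufb11, Ndufb5, Ndufb9, Ndufb6 and Ndufb3 were also lower, by -0.28 to -0.16, while Ndufb8 (-0.27 ± 0.17), Ndufb1 (-0.06 ± 0.04) and Ndufb4 (-0.03 ± 0.05) did not pass.

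In the A group 5 of 12 genes were lower and Ndufa6 was higher (0.17 ± 0.06, adjusted p = 0.0303). The signal of Ndufa6 had an SD of 467 in animals given 3 mg/kg, against 104.5 in controls. Its call was lost without treated animal 2 or 5, and without control animal 1 or 2. It was also lost after quantile normalization, after centring on the 75th percentile and when the groups were fitted alone. Ndufa11, a membrane-arm subunit, was 992, 784, 1089, 852 and 885 in animals given 3 mg/kg, against 1185, 1188, 1237, 1200.1 and 1137 in controls. The treated animals spread more widely than the controls but stayed below all of them, with a change of -0.37 ± 0.10 (adjusted p = 0.00211). Ndufa9, which lies near the quinone site, was 1075, 1139, 1017.5, 1007 and 1009 in treated animals, against 1156, 1237, 1331.5, 1303 and 1269.7 in controls, a change of -0.26 ± 0.04 (adjusted p = 5.94e-06). Ndufa8, Ndufa12 and Ndufa1 were lower by -0.27, -0.23 and -0.18. Ndufa13, Ndufa2, Ndufa3, Ndufa5, Ndufa7 and Ndufab1 did not pass the test, with changes between -0.20 and 0.00.

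The remaining accessory genes included the largest log2 fall of the 84 members in this fit. Ndufs4, an accessory subunit of the NADH-binding module whose loss in humans causes Leigh syndrome, was 237, 351, 367, 278 and 244 in treated animals, against 496, 693, 364, 294 and 321 in controls. The groups overlapped, the controls were widely spread, and the change was -0.48 ± 0.17 (adjusted p = 0.0219). Ndufs4 averaged 434 in these controls, against 277, 248 and 229 in controls of days 3, 5 and 26. The treated mean of 295 on day 8 lay above the control means of those other days. Ndufs6 was lower by -0.20 ± 0.04 with no overlap between groups, and Ndufc2 by -0.19 ± 0.06. In all, 10 complex I genes had every treated animal below every control, where 6.95% of all genes did.

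**Figure D2:**
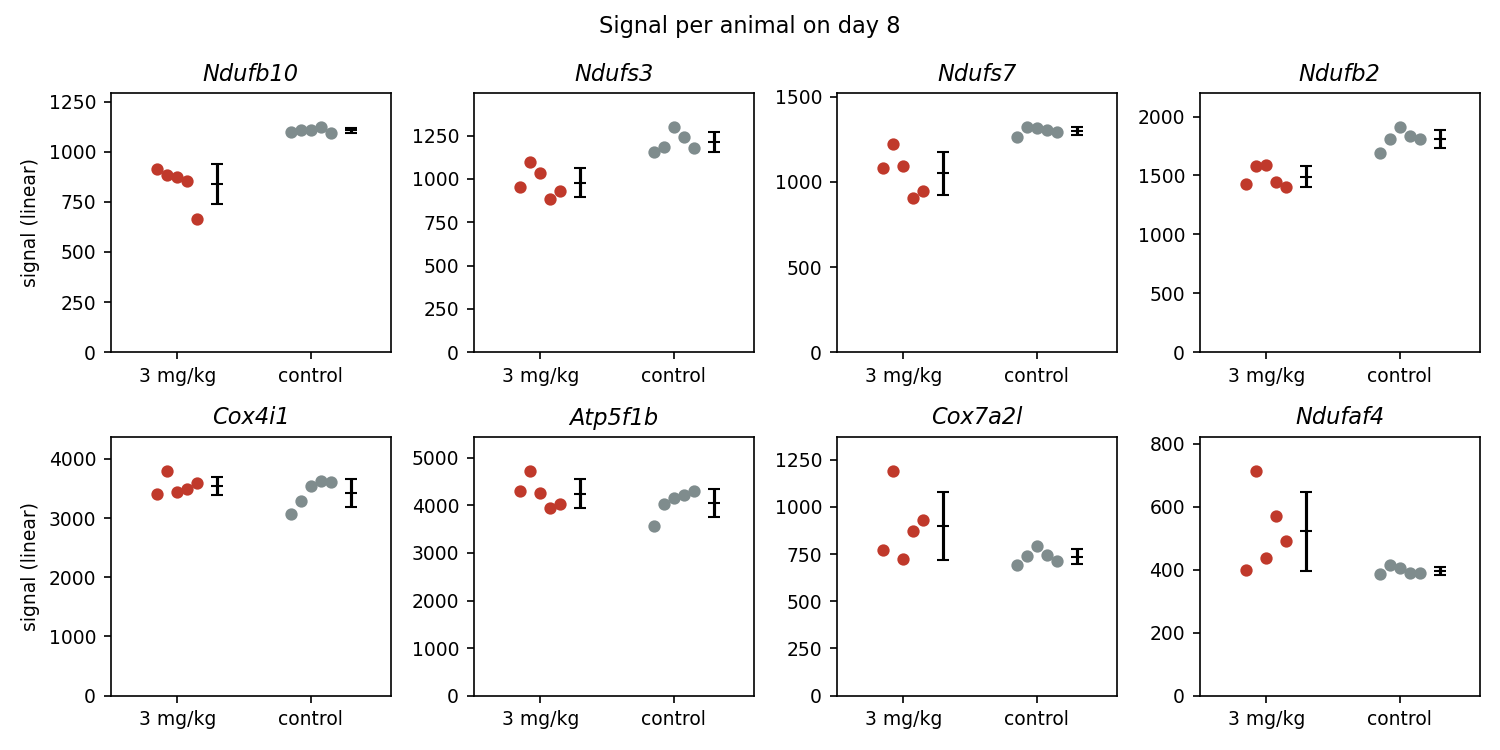
Linear signal per animal on day 8 for 8 genes, 3 mg/kg left and control right (points are animals, bars mean and SD, n = 5 each, axes from 0). The 4 complex I genes of the upper row do not overlap between groups, while Cox4i1, Atp5f1b, Cox7a2l and Ndufaf4 in the lower row do. The 8 genes were picked as examples: among genes not shown, Ndufs4 of complex I overlapped and the assembly factor Ndufaf8 did not.

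Genes of the chain share words for factors that act on mitochondrial genes, and the promoters of 4 genes that hold such words are shown as examples. Of the 4, 3 belong to complex I genes that were lower on day 8. The promoters of Ndufb10, Ndufs3, Ndufb11 and Ndufa12, also lower on day 8, held none of the words searched. The windows run from 250 bases before to 50 after the RefSeq start in GRCr8, written 5′ to 3′ on the gene's strand, with matched words in capitals. The window of Ndufa11 is chr9:1637364-1637663 on the plus strand, Ndufs4 at chr2:47794865-47795164, Ndufs8 at chr1:210573649-210573948 and Cox8a at chr1:213833574-213833873, all 3 on the minus strand.
Ndufa11: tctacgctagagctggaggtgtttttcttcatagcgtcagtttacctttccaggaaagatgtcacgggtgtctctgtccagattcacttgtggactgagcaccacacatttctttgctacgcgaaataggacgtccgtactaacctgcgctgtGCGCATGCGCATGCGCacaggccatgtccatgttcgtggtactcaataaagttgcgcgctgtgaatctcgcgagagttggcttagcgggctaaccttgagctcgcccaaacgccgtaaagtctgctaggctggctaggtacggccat
Ndufs4: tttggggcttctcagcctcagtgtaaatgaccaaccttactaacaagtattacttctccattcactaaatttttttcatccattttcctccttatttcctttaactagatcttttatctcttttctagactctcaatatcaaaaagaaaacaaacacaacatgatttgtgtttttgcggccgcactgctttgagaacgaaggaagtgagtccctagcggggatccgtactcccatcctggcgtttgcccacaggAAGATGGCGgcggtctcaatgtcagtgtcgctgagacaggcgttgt
Ndufs8: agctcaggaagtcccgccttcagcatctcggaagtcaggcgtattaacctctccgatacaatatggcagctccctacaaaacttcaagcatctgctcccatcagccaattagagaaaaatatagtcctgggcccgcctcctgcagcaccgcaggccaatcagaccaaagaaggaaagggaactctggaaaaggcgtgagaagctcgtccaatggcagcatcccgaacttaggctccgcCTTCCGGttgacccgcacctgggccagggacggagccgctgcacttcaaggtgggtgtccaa
Cox8a: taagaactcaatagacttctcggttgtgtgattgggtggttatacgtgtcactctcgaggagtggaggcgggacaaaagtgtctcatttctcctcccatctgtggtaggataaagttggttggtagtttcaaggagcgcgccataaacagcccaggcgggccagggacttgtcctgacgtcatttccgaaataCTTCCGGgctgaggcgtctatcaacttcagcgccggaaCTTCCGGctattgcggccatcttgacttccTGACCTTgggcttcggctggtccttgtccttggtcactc

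The words searched on both strands were GCGCATGCG for nuclear respiratory factor 1 (NRF1), CCGGAAG for ETS factors such as GABP, AAGATGGCG for YY1 and AAGGTCA for the estrogen-related receptors (ERR). Positions are counted from 0 at the annotated start. Ndufa11 held the NRF1 word at -97 and -91 and, on the opposite strand, at -96 and -90, all overlapping, Ndufs4 the YY1 word at 4, and Ndufs8 the ETS word at -12 on the opposite strand. Cox8a, a complex IV gene with a change of 0.05 ± 0.05 on day 8, held the ETS word at -57 and -19 and the ERR word at 11, all on the opposite strand.

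RefSeq windows matched 78 of the 86 members, among them 69 subunits. The ETS word was in 29.0% of subunit promoters, against 9.22% of all 27457 promoters, and the ERR word in 15.9%, against 4.37%. The YY1 word was in 14.5%, against 1.93%, and the NRF1 word in 7.25%, against 1.66%. In complex I the NRF1 word was in 1 of 32 promoters (3.12%), that of Ndufa11, against 4 of 37 (10.8%) in complexes II to V. Among complex I genes lower on day 8 the YY1 word was in 4 of 17 promoters, against 3 of 15 for the other complex I genes, and the ETS word in 3 of 17, against 4 of 15. A match is only a match of letters in this window, and these shares were not tested.

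In complexes II to V, 6 of 40 genes were lower on day 8 (15%), close to the 15.9% of all genes, and limma called 0 higher. In either direction 9 of the 40 had an unadjusted p under 0.05, against 45.7% of all genes. Complex II, which is also an enzyme of the citric acid cycle, had no called gene. Its flavin subunit Sdha was 2509, 2955, 2283, 2549.9 and 2543 in animals given 3 mg/kg, against 2239, 2449, 2518, 2649 and 2596 in controls, a change of 0.04 ± 0.06 (adjusted p = 0.588). The animals of both groups were mixed in order. Sdhb, Sdhc and Sdhd had changes of -0.08, -0.04 and -0.14, with adjusted p-values of 0.211, 0.613 and 0.0742.

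Complex III had 1 called gene of 7, the small subunit Uqcr11, at 2241, 2338, 2313, 2197 and 2114 in treated animals, against 2291, 2495, 2618, 2505 and 2588 in controls (-0.16 ± 0.04, adjusted p = 0.00353). Its groups overlapped through the lowest control. The core proteins Uqcrc1 and Uqcrc2 had changes of -0.06 ± 0.06 and -0.07 ± 0.06, and the Rieske iron-sulfur protein Uqcrfs1 0.02 ± 0.08, none called.

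Complex IV, cytochrome c oxidase, had 2 called genes of 14 and a median change of 0.00. Cox6b1, on the side of the enzyme that faces the intermembrane space, was 2192, 2114.5, 2265, 1847 and 1896 in treated animals, against 2142, 2252, 2345, 2246 and 2385 in controls (-0.14 ± 0.05, adjusted p = 0.0284), with overlapping groups. Ndufa4 was lower by -0.15 ± 0.06 (adjusted p = 0.0479). Cox4i1, the ubiquitous isoform of subunit 4, was 3415, 3800.0, 3432.5, 3483 and 3585 in treated animals, against 3068, 3295, 3548, 3621 and 3607 in controls, a change of 0.05 ± 0.06 that did not pass (adjusted p = 0.516) and whose groups overlapped. Cox5b, Cox6a1 and Cox8a had changes of -0.08, 0.04 and 0.05, none called. The isoforms known from muscle, lung or testis were dim in every group: Cox4i2 averaged 6.65 to 13.5 over the 12 groups, Cox6b2 14.0 to 21.7, Cox7a1 12.4 to 22.6 and Cox8b 4.34 to 19.8. The measured Cox5a probe set was dim as well, with a change of -0.03 ± 0.08 on day 8. Its group means were 47.0 to 49.9 on day 8, controls included, and 83.8 to 101.9 on the other days. Another Cox5a probe set is one of 7 that name several genes and were not used, and the others include those of Atp5mc1, Atp5mc2 and Cox7a2.

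Complex V had 3 called genes of 15, all lower: Atp5pf, a stalk subunit, Atp5f1d, a subunit of the rotor's central stalk, and the small Atp5mpl. Atp5pf was 2323, 2454.5, 2408, 2014 and 2161 in treated animals, against 2436, 2499, 2636, 2625 and 2601 in controls (-0.17 ± 0.05, adjusted p = 0.00369), and only its treated animal 2 reached the lowest control. Atp5f1b, the catalytic beta subunit, was 4298, 4729, 4262, 3944 and 4021 in treated animals, against 3571, 4020.5, 4166.5, 4229 and 4295 in controls. Treated and control animals overlapped, and its change of 0.07 ± 0.06 did not pass (adjusted p = 0.424), nor did those of Atp5f1a (-0.05 ± 0.06) and Atp5mc3 (0.01 ± 0.06).

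Of the 10 members that are no subunits, 3 were higher and 1 lower on day 8. Ndufaf4, an assembly factor for complex I, was 398, 714, 436, 569 and 490.4 in treated animals, against 385, 414, 407, 391 and 388 in controls (0.35 ± 0.08, adjusted p = 0.000286). Cox7a2l, which joins complexes III and IV in supercomplexes, was 771, 1191, 726, 873 and 929.8 in treated animals, against 691, 739, 793, 745 and 712 in controls (0.26 ± 0.06, adjusted p = 0.000666). In both genes animal 2 was the highest and the groups overlapped. The signal distribution of the array of animal 2, given below, differed from the rest of its group. Atp5if1, which keeps the ATP synthase from hydrolysing ATP, was 1303, 1545, 1302, 1264 and 1340.3 in treated animals, against 1238, 1078, 1276, 1292 and 1254 in controls (0.14 ± 0.05, adjusted p = 0.0373), where animal 2 was again the highest and the groups overlapped. Ndufaf8, an assembly factor that partners Ndufaf5, was lower by -0.30 ± 0.09 (adjusted p = 0.00933), with all treated animals below the controls. Ndufaf1, Ndufaf3, Ndufaf5, Ndufaf7, Cox6c-ps1 and Ndufa4l2 were not called.

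The animals of the 3 mg/kg group were spread more widely than the controls. The mean log2 deviation of the 34 complex I genes from the day 8 control mean was -0.19, -0.020, -0.15, -0.31 and -0.26 in treated animals 1 to 5, against -0.078, 0.0017, 0.050, 0.023 and 0.0035 in controls 1 to 5. Animal 2 lay within the control range and the other 4 below it. The array of animal 2 had the lowest median signal of all arrays (20.3). Its 99th percentile was 2464, against 2051 to 2126 in the other treated animals. After quantile normalization the complex I deviation was -0.17 in animal 2, and -0.17, -0.12, -0.32 and -0.31 in animals 1, 3, 4 and 5. Without animal 2, 38 members were called, and without animal 5, 21. For 35 subunits of complexes II to V with a mean signal over 1000 the deviation was -0.059, 0.13, -0.057, -0.16 and -0.10 in treated animals, against -0.14, -0.042, 0.068, 0.051 and 0.062 in controls. Here treated and control animals overlapped.

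**Figure D3:**
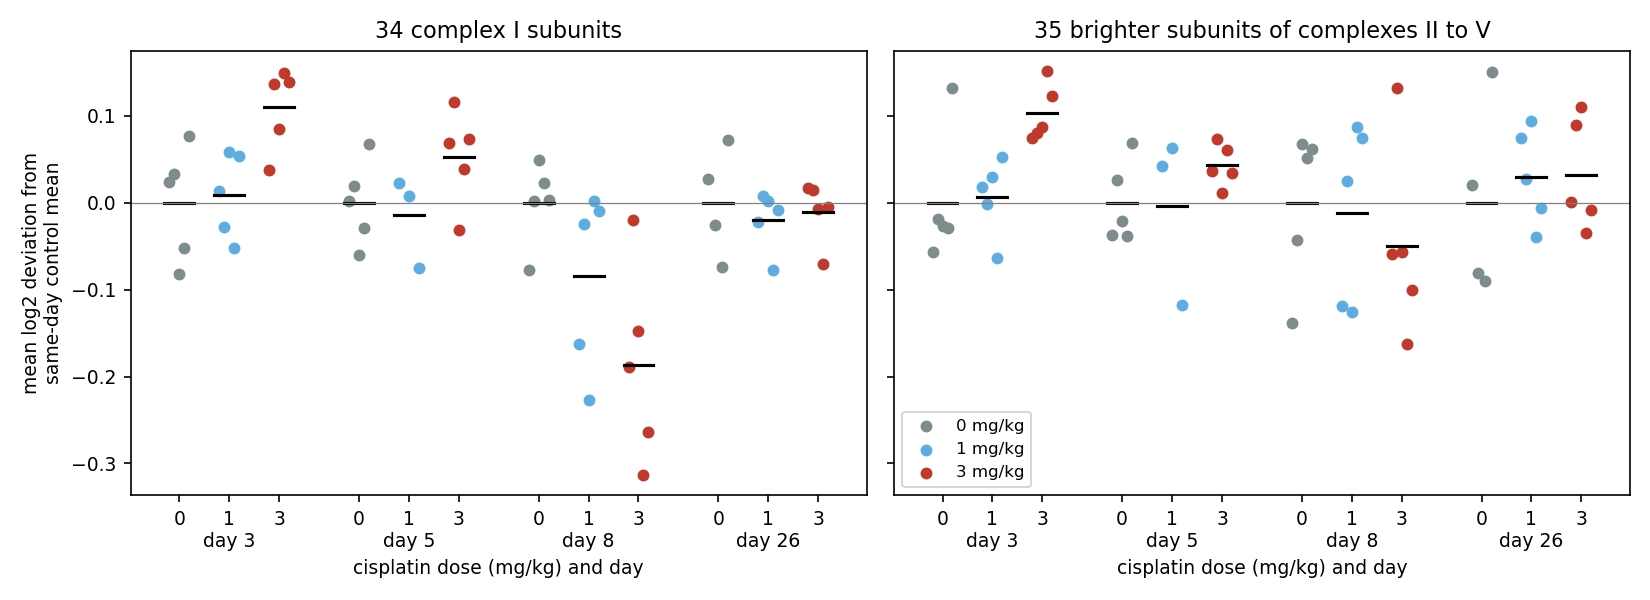
Mean log2 deviation from the same-day control mean per animal (points) and per group (bars) for 34 complex I subunits (left) and 35 brighter subunits of complexes II to V (right), by dose and day. On day 8 the complex I values after 3 mg/kg run from -0.31 to -0.020, and animals 1 and 3 of the 1 mg/kg group lie at -0.16 and -0.23.

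Set against complexes II to V on the same array, complex I was lower in every animal given 3 mg/kg on day 8. The difference between both means was -0.16 to -0.091 at 3 mg/kg and -0.10 to -0.043 at 1 mg/kg, against -0.058 to 0.061 in controls. It was also below 0 in all 5 animals at 1 mg/kg on day 26 (-0.096 to -0.0026). Controls of that day ranged from -0.079 to 0.056, and no member was called at that dose. At 3 mg/kg on day 26 it was -0.12 to 0.016. Limited to the 27 complex I genes with a mean signal over 1000, the difference on day 8 was -0.15 to -0.088 at 3 mg/kg. It was then -0.094 to -0.016 at 1 mg/kg, against -0.041 to 0.042 in controls, and these ranges overlapped. This difference between complexes was not tested, and it depended on the scaling: after quantile normalization on day 8 it was -0.061 to 0.016 at 3 mg/kg, against -0.040 to 0.040 in controls. After that scaling 24 of 34 complex I genes were lower, with a median of -0.23, and 32 of 40 genes of complexes II to V, with a median of -0.20. The complex I deviation itself was then -0.32 to -0.12 in all 5 treated animals, against -0.022 to 0.030 in controls. When the 2 groups were fitted alone, 11 complex I genes and 0 of complexes II to V were lower.

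**Figure D4:**
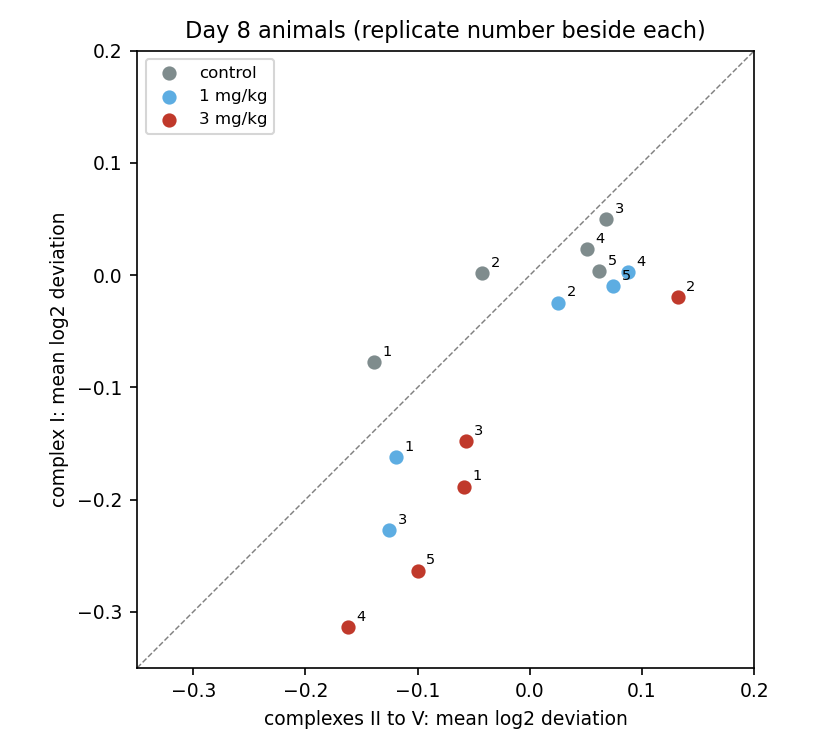
Mean log2 deviation of complex I (vertical) against that of 35 brighter subunits of complexes II to V (horizontal) for the 15 animals of day 8, with replicate numbers and a dashed line of equality. All 5 animals given 3 mg/kg lie below the line, with complex I minus complexes II to V at -0.16 to -0.091.

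The size of the change also went with the brightness of the probe set. Over the 69 subunits with a control signal of at least 100, Spearman's rho between control signal and change was 0.65, and over the 34 complex I genes alone it was 0.43. These are descriptions across genes of the same arrays. Complex I probe sets were dimmer, with a median control signal of 1443, against 2371 to 2814 for the other complexes. In the band from 900 to 2000, 15 of 24 complex I genes and 2 of 4 genes of the other complexes were lower. From 2000 to 3000, 1 of 4 complex I genes and 4 of 20 of the others were lower, and from 3000 to 5000, 2 of 2 complex I genes and 0 of 11 of the others. The 99th percentile of an array's signals averaged 2169 ± 167 in the 3 mg/kg group and 2030.3 ± 69.5 in controls (SD, n = 5 each). The part of signal brightness in the difference between complexes was not tested.

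**Figure D5:**
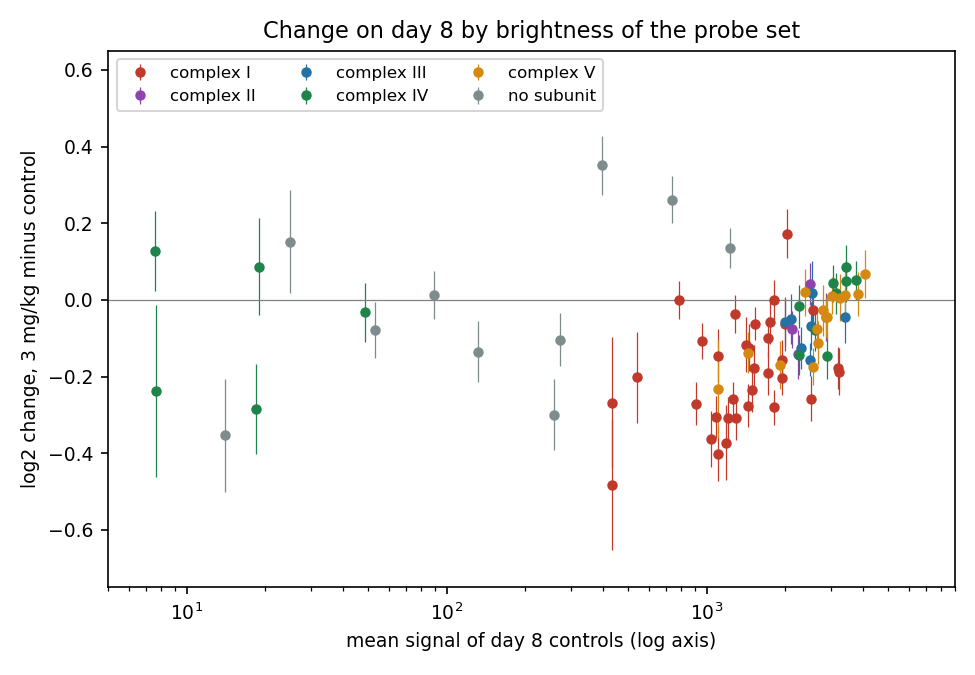
Log2 change on day 8 (3 mg/kg minus control, bars are SE) against the mean control signal on a log axis, for 84 members by complex. Between 900 and 2000 lie 24 of the 34 complex I genes, with a median change of -0.20, and over 3000 lie 11 genes of complexes II to V, with a median of 0.017.

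Other kidney cell markers moved on day 8 as well. Of 9 measured markers of the thick ascending limb and distal tubule, 8 were lower, and their summed signal was 1248 to 6977 in animals given 3 mg/kg, against 12154 to 13403 in controls. Umod, which marks the thick ascending limb, was 785, 2.68, 921, 21.6 and 5.37 in treated animals 1 to 5, against 2393 to 3177 in controls. Animals 2, 4 and 5, with the lowest Umod, had complex I deviations of -0.020, -0.31 and -0.26, and animals 1 and 3 had -0.19 and -0.15. After quantile normalization the deviations were -0.17, -0.32 and -0.31 in animals 2, 4 and 5, and -0.17 and -0.12 in animals 1 and 3. Of 13 proximal tubule markers 3 were lower and 2 higher, and their summed signal overlapped, at 29734 to 32330 in treated animals and 28233 to 33559 in controls. Of 11 collecting duct markers 4 were lower and 1 higher, of 8 endothelial markers 3 lower. Of 10 macrophage markers 7 were higher, with sums of 2383 to 3537 in treated animals, against 1771 to 2080.3 in controls. Of 9 fibroblast markers 6 were higher, with sums of 3588 to 4881 in treated animals, against 2455 to 2764 in controls. Lymphocyte markers had 1 of 5 higher, erythroid markers 0 of 4 called, and muscle and brown fat markers 2 of 6 higher and 1 lower. The part of these cell types in the complex I result was not tested.

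Other genes of mitochondria and energy metabolism are given beside the shares of all genes on day 8, which were 15.9% lower and 21.4% higher. Of 36 assembly factors outside the rule, 15 were lower (41.7%) and 2 higher. The largest falls were those of Lyrm7, which helps insert the Rieske protein (-0.66 ± 0.14), Nubpl, which delivers iron-sulfur clusters to complex I (-0.35 ± 0.13), Ttc19 (-0.33 ± 0.08) and the complex I factor Tmem126b (-0.32 ± 0.06). Of 20 genes of the citric acid cycle and pyruvate oxidation, 7 were lower (35%) and 2 higher, led by Idh3a, a subunit of NAD-dependent isocitrate dehydrogenase (-0.48 ± 0.10), and the kinase Pdk2 (-0.35 ± 0.07). Of 17 genes of electron carriers and coenzyme Q synthesis, 5 were lower (29.4%) and 2 higher: Coq8a fell by 0.54 and Coq2 by 0.44 on the log2 scale, while Coq10b rose by 0.50 ± 0.17. Among 16 glycolysis genes 5 were lower (31.2%), among them Pfkm (-0.66 ± 0.11) and Pklr (-0.63 ± 0.10), and 1, Ldha, was higher (0.57 ± 0.08). Of 73 mitochondrial ribosomal protein genes 17 were lower (23.3%, Mrpl48 by -0.49 ± 0.16) and 2 higher (2.74%). These lists were not tested as sets.

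The shares of lower genes in the other 2 lists were near that of all genes. Of 26 genes of transport and mitochondrial dynamics 4 were lower and 4 higher (15.4% each). Of 19 regulators of mitochondrial biogenesis 3 were lower (15.8%) and 1 higher (5.26%). Ppargc1a, the coactivator PGC-1alpha, averaged 285 in animals given 3 mg/kg and 331.5 in controls (-0.21 ± 0.07, adjusted p = 0.0111). Tfam (-0.01 ± 0.05), Nrf1 (0.11 ± 0.08) and Esrra (-0.11 ± 0.09) did not pass the test.

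On day 3 the called rises after 3 mg/kg cisplatin were small and lay in all 5 complexes, although 3 members were lower after quantile normalization. The median change of the 84 members was 0.12, against 0.036 over all genes, and the 17 called rises ran from 10.2% to 18.2% of the mean signal in subunits, with the dim pseudogene Cox6c-ps1 at 61.5%. They comprised 7 complex I genes of the A and B groups, 1 of complex II, 3 of complex III, 2 each of complexes IV and V, Atp5if1 and Cox6c-ps1. In 15 members all treated animals lay above all controls, where 5.69% of all genes did. The count was 8 when arrays were centred on the 75th percentile and 14 after quantile normalization, 11 of them higher and 3 lower. It was 11 without control animal 1, control animal 3 or treated animal 4.

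Ndufa13 (GRIM-19), a complex I subunit also known as a regulator of cell death, was 1069, 1102, 1048, 1142 and 1125 in animals given 3 mg/kg, against 944.5, 976.5, 885, 892 and 960.0 in controls on day 3. The groups did not overlap and the change was 0.23 ± 0.05 (limma adjusted p = 0.000995). Atp5mg, subunit g of the membrane part of ATP synthase, was 2693, 2956, 2931.5, 2958 and 2924.5 in treated animals, against 2546, 2382, 2319, 2379 and 2615 in controls (0.24 ± 0.06, adjusted p = 0.00718). Here too every treated animal was above the controls. The complex III genes Uqcr10, Uqcrh and Uqcr11 were higher by 0.24 ± 0.07, 0.21 ± 0.05 and 0.17 ± 0.04. The largest change was that of the dim pseudogene Cox6c-ps1, at 36.0, 44.1, 48.4, 42.9 and 40.8 in treated animals, against 31.4, 33.6, 23.4, 23.8 and 19.3 in controls (0.47 ± 0.13, adjusted p = 0.0165). On average complex I deviated from the controls by 0.11 ± 0.047 and the 35 brighter genes of complexes II to V by 0.10 ± 0.033 in treated animals (SD, n = 5). After quantile normalization these means were 0.084 ± 0.033 and 0.0097 ± 0.016.

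The actin ratio of 3′ to 5′ signal was 5.74 to 6.02 in the 3 mg/kg group on day 3, against 4.48 to 5.08 in controls. With this ratio as a covariate 10 members were called, among them 2 complex I genes, against 7 complex I genes without it. The median change of the 84 members was 0.123 with it and 0.115 without it. This fit cannot separate the ratio from the dose, because the ratio did not overlap between these groups. Erythroid markers were lower in 3 of 4 genes, with sums of 720 to 1419 in treated animals, against 2081 to 3321 in controls. The part of the erythroid markers in the rises was not tested. Against the 5.57% of all genes higher and 4.28% lower on day 3, 2 of 36 assembly factors were higher and 2 lower (5.56% each), and 5 of 73 mitochondrial ribosomal genes higher (6.85%) and 3 lower (4.11%). Of 20 citric acid cycle genes 1 was lower, and of 19 biogenesis regulators 2 (10.5%).

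On day 5 the share of members called lay below that of all genes. Ndufa13 was again higher, at 1050.1, 1019, 938, 989 and 1036 in animals given 3 mg/kg, against 875, 938, 849, 861 and 920.3 in controls (0.18 ± 0.05, limma adjusted p = 0.0123). Atp5me, subunit e of ATP synthase, was 1473, 1682, 1505, 1581 and 1521 in treated animals, against 1200.4, 1207, 1319, 873 and 1247 in controls (0.42 ± 0.13, adjusted p = 0.0300). All its treated animals were above the controls, as in 5.29% of all genes, and control animal 4 was the lowest. Ndufaf8 was 270.9, 270.8, 248, 262 and 286 in treated animals, against 251, 194, 207, 228 and 212 in controls, and just passed (0.28 ± 0.09, adjusted p = 0.0497). The groups of Ndufa13 and Ndufaf8 overlapped. The count of 3 moved with single animals: 1 was called without control animal 4 or treated animal 2, 0 without treated animal 1, and 6 without treated animal 3. After quantile normalization 5 members were higher and 6 lower.

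The change between days was tested as the difference of the 3 mg/kg effects. From day 5 to day 8, 23 members moved downward (27.4%) and 0 upward, against 7.69% and 8.65% of all genes, and 16 of the 23 were complex I genes. Ndufb10 changed by -0.54 ± 0.10 (limma adjusted p = 0.000208) and Ndufb7 by -0.42 ± 0.08 (adjusted p = 0.000144). Atp5me changed by -0.65 ± 0.18 and Ndufaf8 by -0.58 ± 0.13, both after a rise on day 5. Of the 23, 19 were also among the 26 called lower on day 8 itself. Both comparisons share the day 8 animals. After quantile normalization 47 members moved downward and 2 upward, and 15 were called when the groups were fitted alone.

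From day 8 to day 26, 11 members moved upward (13.1%) and 2 downward, against 7.30% and 7.66% of all genes. All but 1 of the 11 were complex I genes, among them Ndufs8 (0.31 ± 0.11), Ndufb7 (0.30 ± 0.08) and Ndufb10 (0.29 ± 0.10, adjusted p = 0.0479). The remaining one was the dim complex IV gene Cox7a1. Of the 11, 10 had also been called lower on day 8 itself, and both comparisons share the day 8 animals. Ndufaf4 and Cox7a2l moved downward, by -0.44 ± 0.11 and -0.28 ± 0.09. The count of 13 was 21 without treated animal 2 of day 8, 8 without treated animal 5 of day 8 or control animal 3 of day 26, and 7 without treated animal 4 of day 8. Centred on the 75th percentile it was 7 (5 upward and 2 downward), and after quantile normalization 46 (44 upward and 2 downward). When the groups were fitted alone 3 were called.

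The course of Ndufb10 illustrates these changes. In animals given 3 mg/kg its means at days 3, 5, 8 and 26 were 1246 ± 79.6, 1137 ± 113, 839 ± 98.6 and 1062 ± 58.9 (SD, n = 5 each). The matched controls averaged 1144 ± 87.3, 1029 ± 73.9, 1106 ± 11.6 and 1145 ± 53.5 (n = 5, 5, 5 and 4). At 1 mg/kg its means were 1198 ± 66.6, 1041 ± 52.8, 986 ± 105 and 1079 ± 98.9 (n = 5, 3, 5 and 5). On day 26 the members with an unadjusted p under 0.05 at 3 mg/kg were Cox8a (0.14 ± 0.05, adjusted p = 0.174) and Ndufs1 (-0.14 ± 0.06, adjusted p = 0.214).

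At 1 mg/kg on day 8, 7 members had an unadjusted p under 0.05, a share of 8.33% that was below the 12.9% of all genes. The 7 were the complex I genes Ndufb8, Ndufb10, Ndufb7, Ndufa8, Ndufb5, Ndufs3 and Ndufs6, each with a negative change. None passed the adjustment, with adjusted p-values of 0.240 to 0.353. The median change of complex I was -0.074 and that of complexes II to V -0.0092. Complex I deviations were -0.16, -0.025, -0.23, 0.0025 and -0.010 in animals 1 to 5. Animals 1 and 3, the pair with high Havcr1, lay below all controls, which ran from -0.078 to 0.050, and the other 3 within that range. Ndufb10 was 1003, 1028.1, 802, 1067 and 1028.1 in the 5 animals, all below the controls, as in 0.907% of all genes. Without animals 1 and 3 the median change of complex I was -0.0020 and that of complexes II to V 0.057, and that of all 84 members was 0.028, against -0.035 with both animals. Limma then called 0 members, as with both, and 0 had an unadjusted p under 0.05, against 7.10% of all genes.

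Compared with 1 mg/kg on the same day, 3 mg/kg gave 12 lower members (14.3%) and 2 higher, against 11.1% and 12.1% of all genes. Of the 12, 10 were complex I genes, led by Ndufa11 (-0.38 ± 0.10, adjusted p = 0.00261), Ndufs8 (-0.25 ± 0.07) and Ndufb2 (-0.24 ± 0.05, adjusted p = 0.000110). Ndufb2 was 1428, 1580.1, 1588, 1444 and 1405 in the 3 mg/kg group, against 1650.1, 1874, 1658, 1786 and 1829 in the 1 mg/kg group. The 3 mg/kg animals lay wholly below, as in 2.85% of all genes. The other 2 lower members, Ndufa4l2 and Cox7a1, were dim, and Ndufaf4 (0.38 ± 0.08) and Cox7a2l (0.28 ± 0.06) were higher. This count was 27 (25 lower and 2 higher) without animals 1 and 3 of the 1 mg/kg group and 22 without animal 3 alone. It was 9 without animal 4 of the 1 mg/kg group or animal 5 of the 3 mg/kg group, and 24 without animal 2 of the 3 mg/kg group. After quantile normalization it was 54 (52 lower and 2 higher), and 0 when both groups were fitted alone.

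Replicates of a group varied together across these genes. After subtracting group means, the mean correlation between genes over the 57 arrays was 0.44 among complex I genes, 0.67 among the 35 brighter genes of complexes II to V and 0.49 between both sets. Over all tested genes it was 0.0065. The members are therefore not independent of each other, and their counts are descriptions.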

How the data were processed

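Signals of 57 arrays were used as deposited. The deposited values are linear intensities, 1 per probe set and array, made by the authors with MAS5, per the submitters' processing notes, whose version is not given in the sources used here. Each array's mean without the lowest and highest 2 percent of values was 99.99. The single value column of each array was used, and 0 columns lacked a sample.

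Of 31099 probe sets, 57 controls were left out. By the platform's annotation table, 20826 have 1 gene symbol, 436 several and 9780 none. Those above the 40th percentile of their array on at least 3 arrays were kept (21829), a gene was represented by its brightest kept probe set, and 11683 genes were tested. With limma 3.58.1 in R 4.3.3, log2(signal + 16) was fitted with 12 group means over all arrays (moderated variances with trend, two-sided, Benjamini-Hochberg within each comparison, threshold 0.05). The offset of 16 understates changes of dim genes. All p-values with n under 10 are from this fit. The number of arrays limits the precision. Members, gene lists and tests were chosen with earlier results of these data known.

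Any member could be named. Values went to the 3 largest called changes of each complex on day 8, except that Atp5f1d and Atp5mpl are only named. In complex I more called genes have full values. Values also went to the called members where a comparison had at most 10, and to a set of well-known subunits. Other lists gave up to 4 genes with the largest called changes. Ndufs1, Sdha, Uqcrc1, Cox4i1, Atp5f1b and their like belong to that set, and further members are named as illustrations. Promoters came from RefSeq (GRCr8). Replicate numbers were not used to pair animals. Deviations of same-numbered animals correlated at -0.17 to 0.26. On day 5 all were positive, at 0.015 to 0.21 for 3 mg/kg and 0.053 to 0.15 for 1 mg/kg against control. Whether a shared number stands for shared handling was not tested. The fit was tested on simulated data with 11683 genes. For day 8 at 3 mg/kg it called 18% of genes changed by 0.25 (log2) and 80% of those changed by 0.5. Far fewer genes were changed in the simulation than were called on day 8 in the real data. Alternatives were another offset, filter, probe set rule, scaling and variance model, the groups alone, the actin ratio as a covariate, the replicate block and leaving out animals.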

Additional observations from a re-analysis of the deposited data

Results flagged for a closer look

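Single animals stood apart from the rest of their group in 8 of 105 tests, each of 1 measure in 1 group (gap test of Dixon, which flags about 1 in 20 by chance). Treated animal 2 at 3 mg/kg on day 8 had a complex II mean deviation of 0.21, against -0.14 to -0.089 in the other 4. The array of this animal also had the highest 99th percentile of signals in its group (2464). Ndufb10 was 667 in treated animal 5 of the same group, against 855.5 to 914, and Atp5if1 was 1078 in control animal 2 of day 8, against 1238 to 1292. On day 3, Atp5mg was 2693 in treated animal 1 at 3 mg/kg, against 2925 to 2958, and the complex V deviation was 0.14 in control animal 5, against -0.069 to -0.020. On day 5, the complex IV deviation was -0.068 in treated animal 2 at 3 mg/kg, against -0.031 to -0.017, and Atp5me was 873 in control animal 4, against 1200.4 to 1319. On day 26, the complex I deviation was -0.071 in treated animal 4 at 3 mg/kg, against -0.0075 to 0.017.

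The effect of 3 mg/kg differed between days for members tested by the difference of effects in limma. Between day 8 and day 5 this count was 23 of 84, with 0 upward. Only some of the called members were taken up in this section, and Ndufb7, given above, was not among them. Among the complex I genes taken up, the difference was -0.54 for Ndufb10, -0.44 for Ndufa11, -0.37 for Ndufs7 and -0.35 for Ndufs8. It was -0.33 for Ndufs3, -0.31 for Ndufb2, -0.30 for Ndufv1 and -0.28 for Ndufa13. Outside complex I it was -0.65 for Atp5me, -0.58 for Ndufaf8, -0.23 for Atp5pf and Uqcr11, and -0.21 for Cox6b1. Between day 26 and day 8 the count was 13, with differences of 0.31 for Ndufs8, 0.29 for Ndufb10, 0.27 for Ndufs7 and Ndufb2, 0.25 for Ndufs3, -0.44 for Ndufaf4 and -0.28 for Cox7a2l.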

How the results depend on the processing

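Over the called members of each comparison, 2184 of 2544 gene values under alternatives kept their direction and call, 360 lost the call and 0 reversed. Members that were not called are outside this count, so a gained call could not show in it. Counts of called members that moved by over 1.5 times were the following. After quantile normalization 11 were called on day 5, 61 on day 8, 54 for 3 against 1 mg/kg, 49 for day 8 minus day 5 and 46 for day 26 minus day 8. With the groups of a comparison fitted alone, 5, 12, 0, 15 and 3 were called in these 5 comparisons. Centring on the 75th percentile gave 8 on day 3 and 7 for day 26 minus day 8, the actin ratio as a covariate 10 on day 3, a filter at the 60th percentile 5 on day 5, and averaging all kept probe sets of a gene 1 on day 26. Leaving out 1 animal at a time gave 11 to 23 on day 3, 0 to 6 on day 5, 21 to 38 on day 8 and 0 on day 26, all at 3 mg/kg. It gave 0 for each day at 1 mg/kg, 9 to 24 for 3 against 1 mg/kg, 16 to 33 for day 8 minus day 5 and 7 to 21 for day 26 minus day 8. With the replicate block, which groups animals by their replicate number, 5 were called on day 5. The other counts with this block were within 1.5 times (17 on day 3, 29 on day 8). Leaving out both animals of the 1 mg/kg group of day 8 with high Havcr1, an alternative chosen after seeing the data, gave 27 for 3 against 1 mg/kg and 0 for 1 mg/kg against control. The cause of these differences was not tested; fits of the groups alone have fewer samples. On simulated data for day 8, 18% of genes changed by 0.25 (log2) were called. Far fewer genes were changed there than the 2502 higher and 1858 lower genes called on day 8. The adjustment was therefore stricter in the simulation, and its share cannot be read as that of the real comparison. This share describes simulated data with 11683 genes and was not worked out for the members alone. Some members with smaller changes were called on day 8. Dim isoforms (Cox4i2, Cox6b2, Cox7a1, Cox8b) have little signal above the offset.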
